A study of Mus musculus with 32 samples.

Results

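The genes Fabp6, Slc10a2, Slc51a, Slc51b, Nr1h4, Nr0b2 and Fgf15 take up, carry, export and sense bile acids in the mouse ileum. They were listed by symbol for this role, with no threshold on their values but with earlier results of these data known, and are 7 of the 50686 genes in the deposited tables. PolyA RNA was sequenced from sorted crypt cells of C57BL6 mice. Cells were sorted as EpCAM+, CD24 low or negative, and CD31-, Ter119-, CD45- and 7AAD-, and were then split by the Lgr5 reporter into eGFP-high intestinal stem cells and eGFP-low progenitors. Every mouse carried both Villin-CreER, an inducible Cre driver of the intestinal epithelium, and Lgr5-GFP-IRES-CreER, the reporter, which also expresses an inducible Cre in stem cells. Mice with only these alleles are called wild type here, and mice that also carried Cpt1a fl/fl are called Cpt1a-deficient. Both genotypes ate a high-fat diet or the diet labelled High Fat Control (control diet below), which gave 8 groups of 4 libraries, 32 in all, with 2 female libraries per group in the labels. The labels give no age, no stretch of intestine, no inducer schedule and no time on diet, and do not say whether stem cells and progenitors came from the same mice.

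Bile acids that reach the distal small intestine are taken into enterocytes by the apical transporter ASBT, the product of Slc10a2. Inside the cell they bind the ileal bile acid binding protein encoded by Fabp6, and they leave through the basolateral heterodimer of OSTalpha (Slc51a) and OSTbeta (Slc51b). They also activate the nuclear receptor FXR (Nr1h4), which induces the corepressor SHP (Nr0b2), the hormone Fgf15 that restrains bile acid synthesis in the liver, and the genes of the carrier and the exporter.

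Each library held between 3307711 and 7337425 estimated counts (median 5655066.5), and replicate libraries of a group correlated at 0.99 to 0.994 in log2 (CPM + 1). Levels are given as CPM (counts scaled by TMM-adjusted library size) or, where genes are compared with each other, as TPM, the share of transcripts after accounting for their length. Cpt1a, the targeted gene, was at 118.8 to 346.6 CPM in the 16 wild-type libraries and at 18.8 to 30.6 CPM in the 16 Cpt1a-deficient ones, so no library went against its labelled genotype. Deposited columns carry no replicate number or sex, so the letters a to d only name the 4 libraries of a group. The labels do not state that the libraries of a group came from separate mice, so the p-values measure the spread between these samples, which may be partly technical.

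Judged against each other per transcript length, the genes differed widely in median level, though many neighbours in the order overlapped in range. In progenitors Slc51a had the highest median, 59.9 TPM with a range of 32.6 to 95.5 over 16 libraries, followed by Nr1h4 at 34.2 TPM (19.2 to 60.3), and these ranges overlapped. Fabp6 (median 9.87 TPM, 0.6 to 30.4), Slc51b (7.0 TPM, 4.25 to 14.2) and Nr0b2 (6.71 TPM, 2.92 to 11.01) came next, and their ranges overlapped throughout. Fgf15 and Slc10a2 were lowest, at medians of 0.2 and 0.06 TPM. In stem cells the order was Nr1h4 (26.9 TPM), Nr0b2 (11.7 TPM), Slc51a (7.69 TPM) and Slc51b (1.01 TPM). Fabp6 (0.71 TPM), Fgf15 (0.195 TPM) and Slc10a2 (0.16 TPM) followed. There the ranges of Nr0b2 and Slc51a overlapped, and those of Slc51b, Fabp6, Fgf15 and Slc10a2 all overlapped with one another. Fabp6, at up to 8.64 TPM, also reached into the ranges of Slc51a and Nr0b2. The sensor and its target SHP thus led in stem cells, and the exporter subunit OSTalpha led in progenitors.

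**Figure D1:**
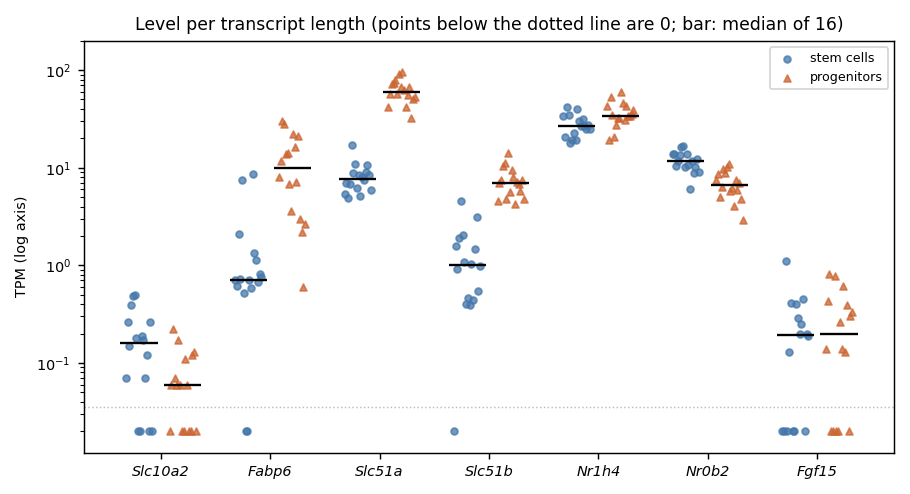
TPM of each gene (log axis) in the 16 stem cell libraries (circles) and the 16 progenitor libraries (triangles), with the median as a bar and values of 0 drawn below the dotted line. Slc51a sits higher in progenitors without overlap, and Slc51b and Fabp6 have higher medians there with overlapping ranges. Nr1h4 and Nr0b2 overlap between the populations, and Slc10a2 and Fgf15 stay near or under 1 TPM in both.

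The label of the set as ileal was checked against other genes of the gut axis. Of 11 markers of the distal small intestine other than the 7 genes, Naaladl1 (stem median 121.9 CPM), Osr2 (76.8 CPM), Mep1a (31.9 CPM) and Amn (27.4 CPM) were well detected. Cubn, which encodes the ileal receptor cubilin, reached at most 0.949 CPM, or 7 counts, in any library. Gata4, a transcription factor of the proximal small intestine, was at 114.4 to 166.3 CPM in stem cells and 144.9 to 214.7 CPM in progenitors. The 4 colon markers together reached 0.0 to 1.58 CPM in stem cells and 0.728 to 10.6 CPM in progenitors. Of the 7 genes, Slc10a2 and Fgf15 were close to absent, while Fabp6 had 1 to 49 counts in the 16 progenitor libraries.

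Slc10a2 (ENSMUSG00000023073; GRCm38 chromosome 8, 5083219 to 5105351, minus strand) encodes the apical uptake transporter. It had 0 to 9 counts per library and passed no filter on low counts. Its counts in libraries a to d were 1, 4, 2 and 5 in wild-type stem cells on control diet and 9, 9, 2 and 0 on high-fat diet. They were 0, 3, 2 and 1 in Cpt1a-deficient stem cells on control diet and 2, 0, 3 and 0 on high-fat diet. In the 16 progenitor libraries they ran from 0 to 3. Every group overlapped every other, and the 43 counts of the stem cell libraries stood against 16 in progenitors. Without the filter the difference of stem cells from progenitors was 0.998 ± 0.536 (log2 ± SE) with an adjusted p of 0.189, and no comparison called the gene. In bulk samples fewer cells that express a gene and less RNA per cell cannot be told apart, which holds for all values here.

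Fabp6 (ENSMUSG00000020405; GRCm38 chromosome 11, 43596049 to 43601540, minus strand) encodes the cytosolic carrier. Its promoter is shown because the gene gave the only diet call among the 7 in the edgeR test and because it holds the sequence most like an FXR element. The 250 bases before the RefSeq start site (GRCm38.p6, chr11:43601563-43601812, minus strand) are printed 5′ to 3′, with 2 matches to the FXR inverted repeat AGGTCANTGACCT in capitals.
Fabp6: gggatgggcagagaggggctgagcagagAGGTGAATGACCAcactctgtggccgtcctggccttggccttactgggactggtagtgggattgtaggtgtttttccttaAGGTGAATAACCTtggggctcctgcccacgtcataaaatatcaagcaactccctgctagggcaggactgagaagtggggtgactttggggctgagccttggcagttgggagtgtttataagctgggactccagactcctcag
Each match differs from the motif at 2 of its 12 fixed letters, which was the number allowed. The first lies at bases -222 to -210 and the second at -142 to -130, counted so that the start site is 0. RefSeq promoter windows were found for 6 of the 7 genes, all but Fgf15. Motifs were searched in the whole window, which runs past the start site beyond the 250 bases printed. Of the 32851 windows of the same length, 1.14% held such a match on either strand. Fabp6 was the one gene of the 6 with a match. A match describes letters only and is not a measured binding site.

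In progenitors Fabp6 was detected in every library. On control diet the wild-type libraries had 2.47, 3.82, 9.47 and 9.46 CPM in libraries a to d, and the Cpt1a-deficient ones 7.22, 5.47, 2.09 and 6.70 CPM. On high-fat diet the wild-type libraries had 4.66, 4.71, 2.27 and 1.17 CPM. The Cpt1a-deficient libraries on high-fat diet had 0.945, 0.689, 0.198 and 0.857 CPM, which rest on 6, 4, 1 and 4 counts. These last 4 libraries were lower than every other progenitor library, while the other 3 groups overlapped.

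Fabp6 fell with the high-fat diet in Cpt1a-deficient progenitors, from 5.37 ± 2.31 CPM to 0.672 ± 0.333 CPM (SD, n = 4 each), a log2 fold change of -2.95 ± 0.59 (SE) with an adjusted p of 0.0418 in edgeR's quasi-likelihood test. This was 1 of 5 genes of the set tested, in a comparison that called 0.313% of all genes. The call was marginal: the adjusted p was 0.0613 with limma, 0.0633 without the filter, 0.0546 with Xist as a covariate, 0.075 with the column set as a term and 0.081 in the joint fit of all libraries, while DESeq2 gave 0.00053. It was lost on leaving out any 1 of 7 of the 8 libraries (adjusted p 0.0659 to 0.174) and kept without control-diet library c (0.0153), with log2 fold changes of -3.21 to -2.67 throughout. In wild-type progenitors the difference was -0.90 ± 0.49 (adjusted p = 0.77), and the genotypes' diet effects differed by -2.04 ± 0.78 (adjusted p = 0.969), so the fall was not shown to differ between genotypes.

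On high-fat diet Fabp6 was lower in Cpt1a-deficient than in wild-type progenitors by a log2 fold change of -2.21 ± 0.62, with no overlap of the groups, but this missed the threshold in edgeR (adjusted p = 0.138) and passed it in DESeq2 (0.0284). This comparison and the diet effect share the 4 libraries of Cpt1a-deficient progenitors on high-fat diet. On control diet the genotypes differed by -0.17 ± 0.47 (adjusted p = 0.991).

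Markers of the distal small intestine as a sum were also lower in Cpt1a-deficient progenitors on high-fat diet than on control diet, without overlap. Their summed level was 206.6 to 254.7 CPM in Cpt1a-deficient progenitors on high-fat diet and 286.6 to 322.0 CPM on control diet, and Cubn was at 0 in all 4 libraries of the latter. Between genotypes on high-fat diet the sums overlapped, with 210.7 to 342.8 CPM in wild type. Of the 9 distal markers tested, 0 were called and 8 had a negative value, with a median log2 fold change of -0.34 against 0.00 for all genes. Enterocyte markers overlapped, at 2650 to 3820 CPM on high-fat diet and 2160 to 4338 CPM on control diet. Over the 16 progenitor libraries Fabp6 correlated with the distal sum at r = 0.65 (permutation p = 0.0066, adjusted p = 0.032 over 37 pairs) and at rho = 0.574 (p = 0.022, adjusted p = 0.12). Without the 2 libraries with the most extreme Fabp6 levels r was 0.56, and it was 0.458 for deviations from the group means, with no p-value computed. The permutations ignored the diet and genotype groups, so the p-values do not separate differences between groups from a relation within them. The part of the distal markers in the Fabp6 result was not tested.

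In stem cells Fabp6 had 0 to 3 counts in 14 of 16 libraries. The exceptions were wild-type high-fat library a with 15 counts (2.03 CPM) and Cpt1a-deficient control-diet library c with 11 counts (2.19 CPM). The gene passed the filter only through progenitors, so it had no filtered test of diet or genotype in stem cells, and without the filter all 4 such comparisons had adjusted p of 0.701 to 0.826. Stem cells were lower than progenitors by -2.81 ± 0.43 (adjusted p = 1.55e-06) over the 4 conditions. The difference was -4.44 ± 0.84 in wild type on control diet and -2.40 ± 0.74 on high-fat diet, where it was -5.42 without library a. It was -2.92 ± 0.73 in Cpt1a-deficient mice on control diet, or -4.40 without library c, and on high-fat diet it was -1.46 ± 1.06 and not called (adjusted p = 0.32).

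Compared per transcript length with the other small carriers of the gut, Fabp6 was a minor species. In wild-type progenitors on control diet Fabp1, the liver-type fatty acid binding protein, had 13.6 times the TPM of Fabp6. This ratio of mean levels was 247.2 on high-fat diet, 124.5 in Cpt1a-deficient progenitors on control diet and 4138 in those on high-fat diet. Of the summed TPM of Fabp1, Fabp2 and Fabp6, Fabp6 made up 2.99%, 0.321%, 0.636% and 0.0215% in these 4 groups. Fabp1 itself had means of 100.8, 918.5, 787.5 and 3280.0 CPM there, with SDs of 53.8, 360.1, 486.7 and 774.3 CPM (n = 4 each). In progenitors Fabp1 and the other 4 tested genes of the fatty acid binding protein list did not pass the test with diet or genotype. In stem cells Fabp1 rose with the high-fat diet in both genotypes (log2 fold changes 3.88 ± 0.43, adjusted p = 0.00267, and 3.16 ± 0.39, adjusted p = 0.013).

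**Figure D2:**
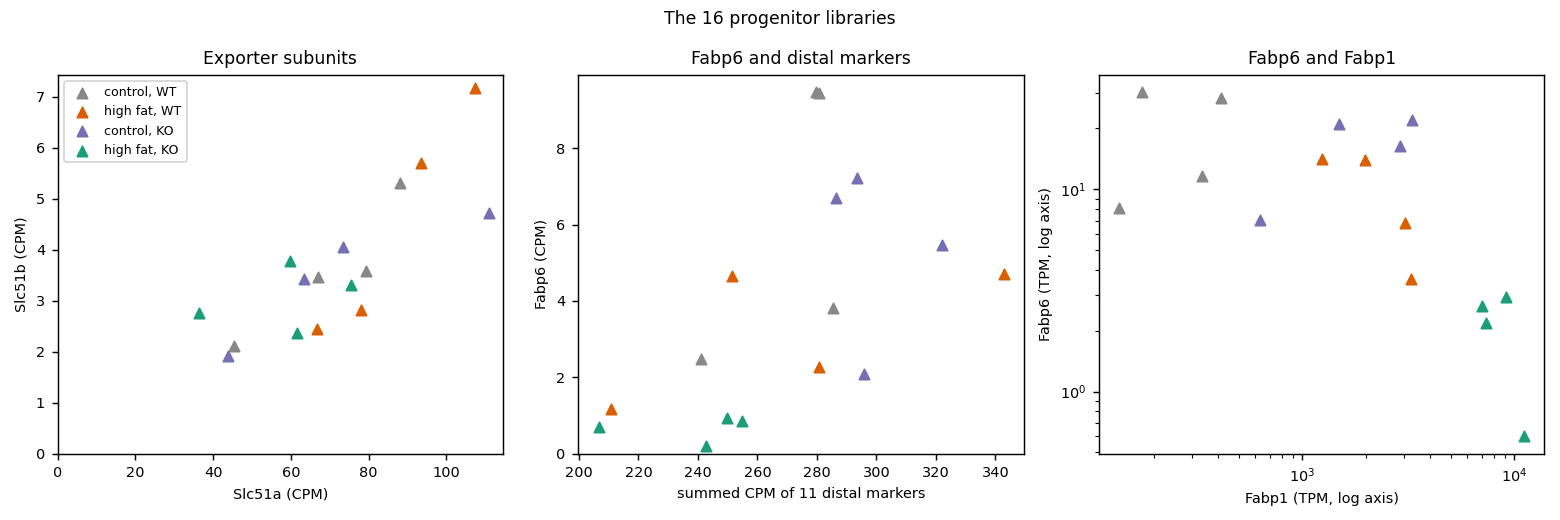
Progenitor libraries by group: Slc51b against Slc51a in CPM (left), Fabp6 in CPM against the summed CPM of 11 distal markers (middle, x axis not from 0) and Fabp6 against Fabp1 in TPM on log axes (right). The 4 Cpt1a-deficient libraries on high-fat diet have the lowest Fabp6 and 206.6 to 254.7 CPM of distal markers, and Slc51a and Slc51b rise together (r = 0.795).

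Of the exporter subunits, Slc51a separated the populations without overlap, while Slc51b did so narrowly in CPM and not in TPM. Slc51a (ENSMUSG00000035699; GRCm38 chromosome 16, 32474504 to 32487879, minus strand) encodes OSTalpha and Slc51b (ENSMUSG00000053862; GRCm38 chromosome 9, 65412714 to 65422955, minus strand) encodes its partner OSTbeta. The 250 bases before each RefSeq start site (GRCm38.p6, chr16:32487880-32488129 and chr9:65422774-65423023, both minus strand) are shown because these genes correlated across libraries, with the single nuclear receptor unit AGGTCA, or its reverse complement, in capitals.
Slc51a: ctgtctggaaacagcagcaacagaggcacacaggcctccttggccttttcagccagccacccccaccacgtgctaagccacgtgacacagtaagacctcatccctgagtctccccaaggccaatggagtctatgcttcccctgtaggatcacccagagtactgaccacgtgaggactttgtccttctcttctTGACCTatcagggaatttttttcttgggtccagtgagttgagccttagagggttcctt
Slc51b: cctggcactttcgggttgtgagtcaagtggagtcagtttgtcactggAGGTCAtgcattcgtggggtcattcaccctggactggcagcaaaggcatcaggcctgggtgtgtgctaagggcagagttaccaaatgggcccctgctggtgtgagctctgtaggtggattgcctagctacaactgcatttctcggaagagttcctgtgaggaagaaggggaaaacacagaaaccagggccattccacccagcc
The unit stands on the minus strand relative to the gene at bases -58 to -53 of Slc51a and on the plus strand at -203 to -198 of Slc51b. It was also found on the minus strand at -214 to -209 of Nr1h4, where it is part of the match to the HNF4 direct repeat AGGTCANAGGTCA (2 mismatches). The RefSeq start site used for Nr1h4, at 89506658, lies inside the gene span given below, whose 5′ end is at 89533585. AGGTCA occurred in 16.3% of all windows, the direct repeat in 3.86% and the Cdx motif TTTATG in 11.9%. TTTATG was in the windows of Fabp6, Slc10a2 and Nr1h4.

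In stem cells Slc51a had 4.46 to 6.28 CPM in the 4 wild-type libraries on control diet and 16.7, 7.60, 10.1 and 6.34 CPM in libraries a to d on high-fat diet. Cpt1a-deficient stem cells had 4.91 to 8.33 CPM on control diet and 5.73 to 9.76 CPM on high-fat diet. In progenitors the ranges were 45.4 to 88.1 and 66.8 to 107.4 CPM in wild type on control and high-fat diet, and 43.9 to 110.9 and 36.3 to 75.5 CPM in Cpt1a-deficient mice. Every progenitor library was above every stem cell library, and the progenitor groups overlapped.

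Slc51a was lower in stem cells than in progenitors by a log2 fold change of -3.25 ± 0.15 (7.64 ± 2.95 against 71.9 ± 21.2 CPM, SD, n = 16 each, adjusted p = 1.52e-16), or 9.50-fold. The difference was -3.66 ± 0.32, -3.07 ± 0.29, -3.43 ± 0.31 and -2.83 ± 0.30 in wild type on control and high-fat diet and in Cpt1a-deficient mice on control and high-fat diet, each called. Slc51b had 0 to 14 counts in stem cell libraries (median 0.404 CPM) and 11 to 38 in progenitors (median 3.45 CPM). Its CPM did not overlap by a narrow margin, with at most 1.898 in stem cells and at least 1.916 in progenitors. Its TPM did overlap, with at most 4.56 in stem cells and at least 4.25 in progenitors. Its difference was -2.85 ± 0.28 (adjusted p = 3.12e-10), with -2.98 ± 0.57, -2.37 ± 0.50, -3.84 ± 0.63 and -2.21 ± 0.54 in the same 4 conditions, each called. Slc51b passed the filter only through progenitors.

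The ratio of the subunits was similar in the 4 progenitor groups, with no test made. Mean TPM of Slc51a was 8.2 to 8.88 times that of Slc51b in the 4 progenitor groups and 5.35 to 12.5 times in the 4 stem cell groups, where Slc51b rested on 5 to 23 counts per group. Over the 16 progenitor libraries the log2 CPM of the subunits correlated at r = 0.795 (permutation p = 0.00024, adjusted p = 0.003 over 37 pairs) and rho = 0.788 (p = 0.00054, adjusted p = 0.01). It was 0.817 without the 2 libraries farthest from the Slc51a median and 0.775 for deviations from group means. Slc51a correlated as closely with the sum of 18 enterocyte markers (r = 0.795, p = 0.0002, adjusted p = 0.003; rho = 0.744, p = 0.0013, adjusted p = 0.016; 0.734 without the 2 farthest, 0.819 within groups). With the sum of 11 proximal markers, which shares Lct with the enterocyte list, it gave r = 0.835 (p = 7e-05, adjusted p = 0.0026) and rho = 0.788 (p = 0.00048, adjusted p = 0.01), with 0.82 without the 2 farthest and 0.895 within groups. The points share library scaling and the mix of sorted cells, whose part in these relations was not tested.

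No difference of either subunit with diet or genotype passed the test. Among the differences tested after the filter the largest was the higher Slc51a of wild-type stem cells on high-fat diet, 0.90 ± 0.28, where the 2 groups did not overlap but the adjusted p was 0.201. It was 0.54 without high-fat library a, which also had 14 counts of Slc51b and 15 of Fabp6. Slc51b did not pass the filter in stem cells, and without the filter its diet difference was 0.95 ± 0.75 in wild type and 1.40 ± 0.86 in Cpt1a-deficient mice (adjusted p = 0.701 and 0.826). In progenitors Slc51a differed by 0.31 ± 0.29 with diet in wild type and by -0.33 ± 0.29 in Cpt1a-deficient mice, and Slc51b by 0.34 ± 0.37 and -0.22 ± 0.37 (adjusted p 0.748 to 0.921). On high-fat diet the Cpt1a-deficient progenitors differed from wild type by -0.56 ± 0.29 in Slc51a and -0.57 ± 0.37 in Slc51b (adjusted p = 0.525 and 0.63). GENCODE places Slc51a over 567 bases of the opposite-strand gene Pcyt1a, which had 140 to 391 counts, and Slc51b over 2140 bases of Rasl12, which had 0 to 7. The strand setting of the counting was not given in the sources used here, so shared reads cannot be separated.

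**Figure D3:**
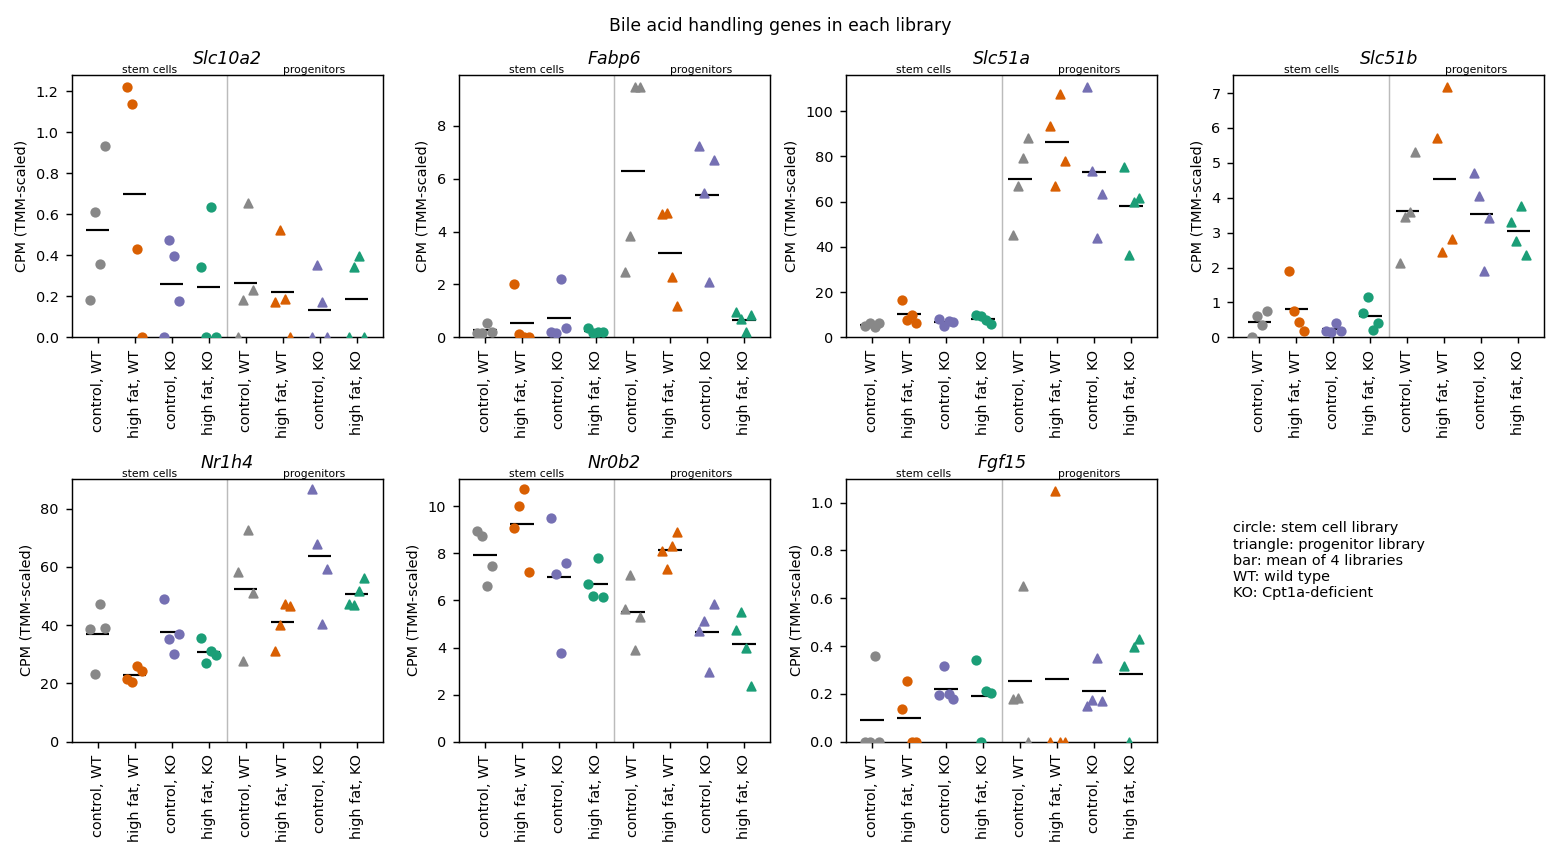
CPM of each gene in every library (each panel with its own axis from 0), by diet and genotype, for stem cells (circles) and progenitors (triangles), with the group mean as a bar. Fabp6 is low in the 4 Cpt1a-deficient progenitor libraries on high-fat diet (0.198 to 0.945 CPM), Slc51a separates the populations fully, and Slc10a2 and Fgf15 stay at or under 1.22 CPM.

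Nr1h4 (ENSMUSG00000047638; GRCm38 chromosome 10, 89454234 to 89533585, minus strand) encodes the bile acid sensor FXR and was well expressed in both populations. Stem cells had 38.9, 23.1, 47.1 and 39.0 CPM in wild-type libraries a to d on control diet and 21.4, 20.5, 26.0 and 24.1 CPM on high-fat diet. Cpt1a-deficient stem cells had 48.8, 35.3, 30.1 and 36.8 CPM on control diet and 35.6, 27.0, 31.1 and 29.9 CPM on high-fat diet. The wild-type high-fat libraries were low, and only control-diet library b of wild type reached into their range. Progenitors had 27.8 to 72.8 CPM in wild type on control diet, 31.1 to 47.4 CPM on high-fat diet, 40.4 to 86.9 CPM in Cpt1a-deficient mice on control diet and 46.8 to 56.3 CPM on high-fat diet.

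Nr1h4 was lower in stem cells than in progenitors by -0.70 ± 0.12 (32.2 ± 8.60 against 52.0 ± 15.1 CPM, SD, n = 16 each, adjusted p = 5.31e-06), a change of 1.62-fold that left the ranges overlapping. It was -0.84 ± 0.24, -0.76 ± 0.23 and -0.71 ± 0.23 in wild type on high-fat diet and in Cpt1a-deficient mice on control and high-fat diet, all called by edgeR, and -0.49 ± 0.23 in wild type on control diet, not called (adjusted p = 0.0867). With limma on log2 TPM the difference over the 4 conditions was -0.38 and still called (adjusted p = 0.0031), but none of the 4 single conditions was (adjusted p 0.0704 to 0.604). In edgeR the call on high-fat diet in Cpt1a-deficient mice was lost without the filter (0.0641), without stem cell library b (0.0615) and without progenitor library d (0.0569), and that on control diet without progenitor library a (0.0605). In wild type on control diet a call was gained without progenitor library b (-0.70, adjusted p = 0.00949) or stem cell library c (-0.63, 0.0454).

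Between high-fat and control diet Nr1h4 differed by -0.69 ± 0.18 in wild-type stem cells (adjusted p = 0.131 in edgeR, not called). DESeq2 called it (0.0377), and so did edgeR without control-diet library b (-0.87, adjusted p = 0.04). The value was -0.28 ± 0.18 in Cpt1a-deficient stem cells, and the difference between the genotypes was 0.41 ± 0.26 (adjusted p of 0.999 for both). In progenitors it was -0.34 ± 0.26 in wild type and -0.34 ± 0.25 in Cpt1a-deficient mice (adjusted p = 0.877 and 0.694). By genotype Nr1h4 differed by 0.43 ± 0.19 in stem cells on high-fat diet (adjusted p = 0.711), where the groups did not overlap, and by 0.02 ± 0.18 on control diet.

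Nr0b2 (ENSMUSG00000037583; GRCm38 chromosome 4, 133553376 to 133556536, plus strand) encodes SHP, a corepressor with no DNA-binding domain that is induced by FXR. It was the one gene of the set called as higher in stem cells, by 0.49 ± 0.12 over the 4 conditions (7.73 ± 1.74 against 5.61 ± 1.91 CPM, SD, n = 16 each, adjusted p = 0.000701), or 1.40-fold, with overlapping ranges. Among single conditions the difference was called in Cpt1a-deficient mice on high-fat diet (0.67 ± 0.25, adjusted p = 0.0361). It was 0.51 ± 0.24 and 0.18 ± 0.23 in wild type on control and high-fat diet and 0.59 ± 0.24 in Cpt1a-deficient mice on control diet (adjusted p = 0.0915, 0.564 and 0.0546). The call was lost without the filter (0.0769), without stem cell library c (0.0995) and without progenitor library c (0.0752) or d (0.136). On control diet in Cpt1a-deficient mice a call was gained with limma (0.00876), Xist as a covariate (0.0466), the column set as a term (0.0471) and without stem cell library c (0.00923) or progenitor library d (0.0363). In wild type on control diet it was gained with limma (0.00405) and without progenitor library b (0.0498).

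In progenitors Nr0b2 had 5.65, 7.10, 3.92 and 5.31 CPM in wild-type libraries a to d on control diet and 8.12, 7.33, 8.30 and 8.90 CPM on high-fat diet. Cpt1a-deficient progenitors had 4.72, 5.12, 2.96 and 5.84 CPM on control diet and 4.73, 5.51, 3.97 and 2.36 CPM on high-fat diet. The 4 wild-type high-fat libraries were above every other progenitor library. On high-fat diet Nr0b2 differed between Cpt1a-deficient and wild-type progenitors by -0.95 ± 0.25 (adjusted p = 0.113 in edgeR, 0.0489 in DESeq2). The diet difference was 0.54 ± 0.25 in wild type (adjusted p = 0.698) and -0.16 ± 0.26 in Cpt1a-deficient mice (adjusted p = 0.884), and the difference of these was -0.70 ± 0.36 (adjusted p = 0.969). In stem cells Nr0b2 had 6.61 to 8.94 and 7.22 to 10.7 CPM in wild type and 3.78 to 9.49 and 6.14 to 7.82 CPM in Cpt1a-deficient mice on control and high-fat diet, with adjusted p of 0.756 to 1.0 in the 4 comparisons.

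Set beside its sensor, the ratio of mean TPM of Nr1h4 to Nr0b2 was lower in stem cells, at 2.63, 1.39, 3.06 and 2.58 in wild type on control and high-fat diet and in Cpt1a-deficient mice on control and high-fat diet. In progenitors it was 5.44, 2.84, 7.72 and 6.86. The wild-type high-fat group had the lowest ratio in both populations. Over the 16 progenitor libraries the pair correlated at r = -0.404 (permutation p = 0.12, adjusted p = 0.37) and rho = -0.509 (p = 0.045, adjusted p = 0.17), with -0.374 without the 2 farthest libraries, so no relation was shown.

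Fgf15 (ENSMUSG00000031073; GRCm38 chromosome 7, 144896531 to 144900953, plus strand) encodes the hormone that the ileum releases when FXR is active. It had 0 to 2 counts in each of the 16 stem cell libraries and 0 to 6 in progenitors. The 6 counts were all those of wild-type progenitors on high-fat diet and lay in library b, where the other 3 libraries had 0. Summed over a group the gene had 2 to 6 counts, with exact 95% Poisson intervals on unscaled library totals from 0.0113 to 0.337 CPM in the lowest group and 0.0968 to 0.574 CPM in wild-type progenitors on high-fat diet. These intervals cover counting error only. No difference was detectable at this depth, and without the filter stem cells against progenitors gave -0.68 ± 0.57 (adjusted p = 0.523). Antisense genes Gm26793 and Gm39119 overlap the locus and had 0 to 3 and 0 to 1 counts.

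**Figure D4:**
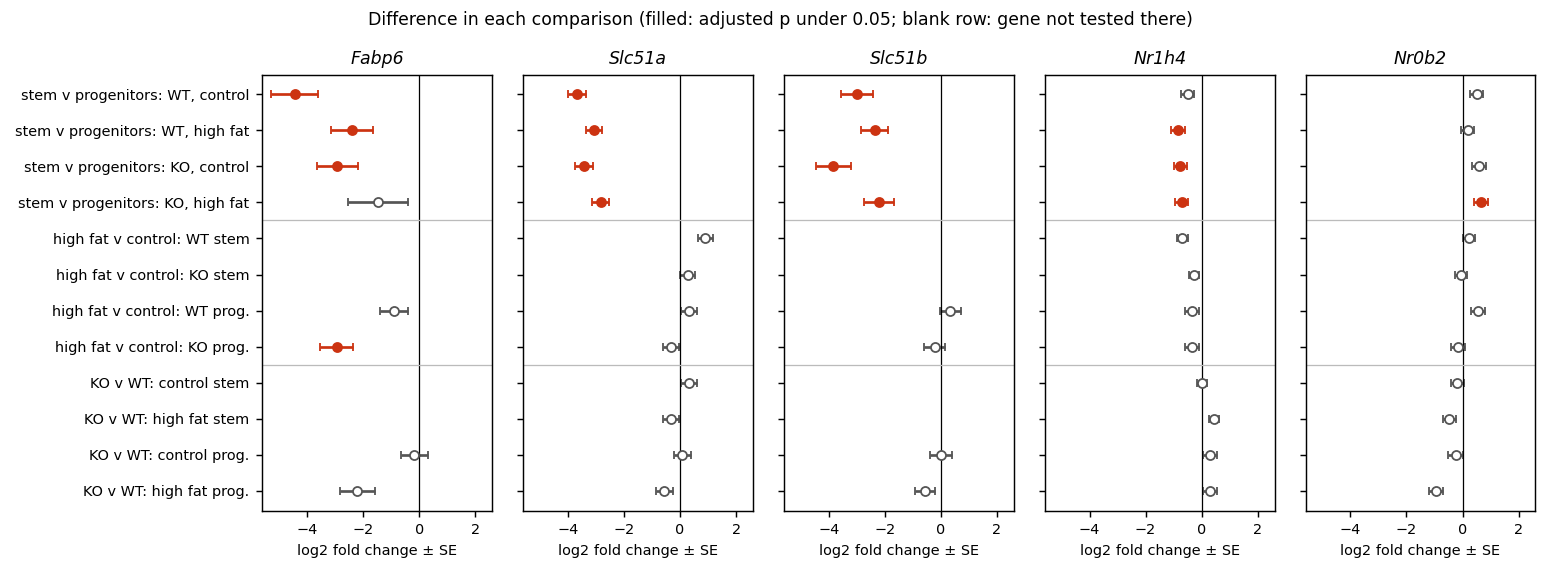
Log2 fold change with its standard error for the 5 genes that could be tested, in 12 comparisons (filled red: adjusted p under 0.05 in edgeR; no point: the gene did not pass the filter there). The difference of stem cells from progenitors is filled in all 4 conditions for Slc51a and Slc51b, and Fabp6 in Cpt1a-deficient progenitors is the one filled point for diet or genotype.

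The counts of calls read as follows against the share of all genes called. With the high-fat diet in stem cells 0 of the 3 tested genes of the set were called in wild type, where 0.25% of all genes were called, and 0 of 3 in Cpt1a-deficient mice, where it was 0.0645%. Of these, 2 (Slc51a and Nr1h4) and 0 had an unadjusted p under 0.05, against 1446 and 585 of the 12409 genes tested, and DESeq2 called 1 and 0. By genotype in stem cells 0 of 3 were called on control diet (0.242% of all genes) and on high-fat diet (0.443%), with 0 and 1 (Nr1h4) at an unadjusted p under 0.05 (587 and 792 of all genes) and 0 called by DESeq2 in either. In progenitors 0 of 5 were called with diet in wild type (0.0883%) and by genotype on control diet (0.257%) and on high-fat diet (0.706%). At an unadjusted p under 0.05 these had 1 (Nr0b2), 0 and 2 (Fabp6 and Nr0b2), against 880, 723 and 1317 of the 12460 genes tested, and DESeq2 called 0, 0 and 2. limma called 0 in each of these comparisons. The shares are those of edgeR and give no background for the DESeq2 counts.

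The interaction of diet and genotype called 0.0% of all genes in edgeR in stem cells, with 444 genes at an unadjusted p under 0.05, and 0.0% in progenitors, with 561. Of the set 0 and 1 (Fabp6) were among these, and DESeq2 and limma called 0 in both. The differences of the diet effect and of the genotype effect between populations also called 0.0% and 0.0% of genes, with 686 and 393 at an unadjusted p under 0.05, none of them from the set, and 0 genes of the set called by DESeq2 or limma. Between stem cells and progenitors, by contrast, 63.5% of all genes were called over the 4 conditions, and 41.4%, 37.3%, 36.8% and 31.4% in wild type on control and high-fat diet and in Cpt1a-deficient mice on control and high-fat diet. The set had 5 of 5 called over the 4 conditions and 3, 4, 4 and 4 in the single ones. As Fabp6 and Slc51b entered only through progenitors, these counts are a description. Without the filter 2 were called in Cpt1a-deficient mice on high-fat diet, Slc51a and Slc51b, and the same 2 without progenitor library d of that group. In wild type on control diet 5 were called without progenitor library b.

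Cell mixture moved with the comparison of populations. Summed enterocyte markers were at 1369 to 2095 CPM in stem cells and 2160 to 5891 CPM in progenitors, with 12 of 17 tested lower and 2 higher in stem cells, and all 18 detected. Goblet markers were at 143.2 to 614.3 and 7563 to 22080 CPM, Paneth markers at 196.8 to 2451 and 3531 to 22130 CPM, and enteroendocrine markers at 3.36 to 48.6 and 477.9 to 1187 CPM. Proximal small intestine markers were at 295.2 to 475.3 and 566.9 to 1414 CPM, with 7 of 10 tested lower in stem cells and 0 higher. Of all genes, 63.5% were called over the 4 conditions. Distal markers overlapped, at 210.3 to 342.1 and 206.6 to 342.8 CPM. Markers of white blood, endothelial, red blood and stromal cells together stayed at or under 1.43 CPM. The part of the cell mixture and of the proximal markers in the lower Slc51a, Slc51b, Fabp6 and Nr1h4 of stem cells was not tested.

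The other genes of bile acid transport, sensing, synthesis and conjugation were read from a list of 40, of which 29 passed the filter. Between stem cells and progenitors, where 63.5% of all genes were called, 10 were higher, 10 lower and 9 not called. Their median log2 fold change was 0.021 against 0.025 for all genes. Those with the smallest adjusted p were Slco2b1, an organic anion transporter, at -0.95 ± 0.07, Fgfr4, the receptor through which Fgf15 acts in liver, at 1.94 ± 0.14, and Vdr, the vitamin D receptor, which also binds lithocholic acid, at 1.04 ± 0.09. Next were Ugt1a1, a glucuronosyltransferase, at -0.93 ± 0.09, Nr1i3, the receptor CAR, at -1.89 ± 0.19, and Cyp3a13 at -1.71 ± 0.18 (adjusted p of 4.24e-13 to 2.94e-09 for the 6). With diet or genotype the list gave 2 calls in 8 comparisons, which each called 0.0645% to 0.706% of all genes. The interactions gave 0 of 29 in each population. Ugt1a1 was higher in Cpt1a-deficient than wild-type stem cells on control diet (0.92 ± 0.18, adjusted p = 0.0378), and Abcg5, a subunit of the sterol exporter, was lower in Cpt1a-deficient than wild-type progenitors on high-fat diet (-0.82 ± 0.15, adjusted p = 0.0122).

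All 5 tested members of the list of other fatty acid binding proteins (Fabp1, Fabp2, Fabp5, Rbp2 and Rbp7) were lower in stem cells, with a median log2 fold change of -2.65. Fabp6, at -2.81, lay within their range of -3.44 to -1.59. Of all genes, 63.5% were called between the populations. With diet Rbp2, a retinol carrier, rose in wild-type stem cells with Fabp1 (2.87 ± 0.49, adjusted p = 0.0409). On control diet Fabp1 was higher in Cpt1a-deficient than in wild-type stem cells (2.53 ± 0.43, adjusted p = 0.0261).

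Genes whose log2 CPM followed a gene of the set most closely over the 32 libraries, after the mean of each population was subtracted, are given as a description. They were ranked by Pearson's r among 11885 genes. Slc51a was most like Mogat2 (r = 0.835; 0.754 in the 16 stem cell and 0.913 in the 16 progenitor libraries), which encodes an enzyme of triglyceride resynthesis, then St3gal4 (0.833), Enpep (0.805), Dhrs11 (0.799) and Gna11 (0.797). Slc51b was most like Enpep (0.83; 0.828 and 0.837), a brush border peptidase, then Slc2a2 (0.755), the basolateral glucose transporter, St3gal4 (0.755), Slc51a (0.725) and Mpp1 (0.725). Its stem cell values rest on 0 to 14 counts per library. Without the 2 libraries farthest from the Slc51b median the values over all libraries were 0.618 to 0.752. Of the top 5, Enpep and St3gal4 were shared by the subunits, and Slc51a ranked 4 for Slc51b.

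The other lists shared no gene with these. Nr1h4 was most like Wdfy1 (0.718; 0.715 and 0.722), Zdhhc13 (0.698), N4bp2l1 (0.664), Foxq1 (0.652) and Myd88 (0.622). Nr0b2 was most like Gm9774 (0.658), Thap7 (0.637), Ndrg2 (0.632), Kcne3 (0.631) and Otulin (0.626), and without the 2 libraries farthest from its median these fell to 0.414 to 0.55. Fabp6 was most like Nfkbid (0.705; 0.419 and 0.888), Bloc1s4 (0.676), Clp1 (0.646), Edn2 (0.643) and Psmd9 (0.64), on low counts. By Spearman's rho Bloc1s4 ranked first for Fabp6 and Nfkbid ranked 36, while Wdfy1 stayed first for Nr1h4 and Slc2a2 came first for Slc51b.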

How the data were processed

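Per the submitters' processing notes, the build was mm10 and the tools named are RSEM 1.3.0, SAMtools 1.3 and STAR 2.5.3a. What each was used for, the annotation and the strand setting were not given in the sources used here. One deposited table holds expected counts for each gene, which appear in it as whole numbers, and the second deposited table holds the log2 of TPM plus 1. Its values were turned back to TPM for levels. Counts of genes without a symbol made up 0.0677% of all. Positions came from GENCODE M21 on GRCm38.

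Genes were tested with edgeR 4.0.16 in R 4.3.3 (TMM, filterByExpr at a minimum count of 10, robust quasi-likelihood fits, Benjamini-Hochberg over all genes, threshold 0.05). The 16 libraries of each population were fitted apart for diet and genotype (12409 and 12460 genes tested), and all 32 together for stem cells against progenitors (13088). The filter kept Slc51a, Nr1h4 and Nr0b2 in stem cells and these with Fabp6 and Slc51b in the other fits. Standard errors were derived from the log2 fold change and its F statistic. Alternatives were RLE scaling, DESeq2 1.42.0, limma 3.58.1 on log2 TPM plus 1, no filter, Xist as a covariate, each library left out, other sets of libraries in the fit and, chosen after seeing the data, the runs of 8 adjacent columns as a term. Correlations used log2 CPM with a prior count of 2 and 100000 permutations, two-sided. Libraries of a population were permuted without regard to diet and genotype, so differences between groups enter these p-values. Promoters and motifs came from RefSeq windows of GRCm38.p6. The tests were tried on simulated data.

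The genes and lists were chosen with earlier results of these data known. Named beyond the 7 were Cpt1a, called genes of 2 lists (at most 6 by adjusted p) and the 5 genes most like each gene that passed the joint filter, with a mean log2 CPM of at least 1. In the correlations a pair of the set or a gene of the set with a marker sum counted as 1 of 37.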

Additional observations from a re-analysis of the deposited data

Results flagged for a closer look

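Each of the 7 genes was looked at in each of the 8 groups for a library that lay far from the other 3. Of 56 such groups 8 held one. Chance gives such a gap in about 1 of 20 groups of continuous values, a rate that does not apply to counts as low as most of these, where 2 counts beside 1 or 0 already give it. Fabp6 stood out in wild-type control-diet stem cell library c at 0.5355 CPM (3 counts, the others 0.153 to 0.187 CPM), in wild-type high-fat stem cell library a at 2.034 CPM (15 counts, the others 0.0 to 0.127 CPM) and in Cpt1a-deficient control-diet stem cell library c at 2.191 CPM (11 counts, the others 0.158 to 0.354 CPM). Slc51b stood out in the same Cpt1a-deficient control-diet stem cell library c at 0.3983 CPM, or 2 counts. Fgf15 stood out in wild-type control-diet stem cell library c at 0.357 CPM (2 counts), in Cpt1a-deficient control-diet stem cell library b at 0.3167 CPM (2 counts), in wild-type high-fat progenitor library b at 1.047 CPM (6 counts, the others at 0) and in Cpt1a-deficient control-diet progenitor library c at 0.3484 CPM (2 counts).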

How the results depend on the processing

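The 75 tests of single genes in 17 comparisons gave 1546 values under other settings. Of these, 1510 kept their side of the threshold, 23 lost a call, 13 gained one and 0 reversed a called direction. Direction was compared only where a call was made, and some uncalled values changed sign. For Nr0b2 with diet in Cpt1a-deficient stem cells the log2 fold change was -0.06 in full and -0.26 to 0.11 with a library left out. High-fat against control diet in wild-type stem cells called 0 genes of the set, which became 1 with DESeq2 and 0 to 1 with a library left out. For the diet effect in Cpt1a-deficient progenitors it went from 1 to 0 with limma, no filter, Xist as a covariate, the column set as a term and the joint fit, and was 0 to 1 with a library left out. For genotype in progenitors on high-fat diet it went from 0 to 2 with DESeq2. For stem cells against progenitors it was 3 to 5 with a library left out in wild type on control diet (3 in full), and in Cpt1a-deficient mice on high-fat diet 2 without the filter and 2 to 4 with a library left out (4 in full). In Cpt1a-deficient mice on control diet (4 in full) it was 3 to 5 with a library left out and 5 with Xist or the column set as a term. With limma it was 4 and 3 in wild type on control and high-fat diet (3 and 4 in full) and 4 and 3 in Cpt1a-deficient mice. The cause was not tested, and the shares of all genes called under these settings are not given here. No paired analysis was possible because the columns carry no replicate number. The column set was fitted as a term, but no label ties it to the replicate numbers. The sex in the labels could not be used as a covariate because the columns do not carry it. At 0 to 9 counts per library Slc10a2 and Fgf15 allow no statement on diet or genotype.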
